A study of Arabidopsis thaliana with 8 samples.

Results

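The comparison set Arabidopsis thaliana seedlings mutated in an accessory subunit gene of a chromatin remodelling complex against seedlings mutated in 2 others. Its members were 4 of the 8 libraries of the series: 2 from the line arid5, whose genotype is given as arid5(-/-), and 2 from the line rlt1/2, given as rlt1(-/-)rlt2(-/-). The 2 wild-type (WT) libraries tied the deposited tables of the mutants to a common scale and served as the reference level. The other 2 libraries, of a mutant line labelled chr11/17, were used only where a fit of all 8 libraries is named. All plants were of the ecotype Col-0 and carried no listed allele or treatment beyond those of these labels. Seedlings on MS medium had days of 16 h at 23 °C and nights of 8 h at 21 °C, were taken whole at 10 days, and had their messenger RNA sequenced. The labels do not name the alleles, or say whether the libraries of a line came from separately grown plants, so a p-value reflects the spread among these particular libraries, which may be technical.

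ISWI remodellers are enzymes that move and space nucleosomes along DNA with the energy of ATP. In Arabidopsis the ATPases CHR11 and CHR17 work with accessory proteins, among them RLT1 and RLT2, which carry a homeodomain and a DDT domain, and ARID5, which carries an AT-rich DNA interaction domain. The complex is best known for keeping flowering genes low during vegetative growth, and mutants of its subunits flower early. The comparison therefore asks how far loss of one kind of accessory subunit and loss of the other leave the same transcript levels.

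There were 23022 genes in the table of arid5 and 23248 in that of rlt1/2, of which 22837 were in both. Within these shared genes a library held 23136763 to 29966503 reads, with the libraries labelled rlt1/2 the deepest. A gene was tested when its normalised read count reached 10 in at least 2 of the 6 libraries, which 20811 genes did, while 2026 were too low. Levels below are normalised read counts on the scale of the arid5 table and differences are on a log2(normalised count + 10) scale, as rlt1/2 minus arid5 unless another pair is named. A gene was called when limma gave a Benjamini-Hochberg adjusted p under 0.05 over all genes tested.

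Transcripts of the mutated loci served as a check of the labels. ARID5 (AT3G43240) had 831 and 845 normalised counts in WT, 213 and 206 in arid5, and 1089 and 1017 in the libraries labelled rlt1/2. It was thus lowest in arid5, at 2.28 ± 0.08 (SE) log2 units below rlt1/2, with a limma adjusted p of 8.97e-08. By reads ARID5 was 4-fold lower in arid5 than in WT, so part of its transcript was still counted there. RLT2 (AT5G44180) had 2070 and 1958 in WT, 2666 and 2740 in arid5, and only 79.4 and 54.8 in the libraries labelled rlt1/2. That made it the largest difference in the comparison, −5.16 ± 0.12 log2 units with an adjusted p of 1.76e-09. RLT1 (AT1G28420) went against the label as far as transcript level goes, with 1765 and 1784 in WT, 2749 and 2820 in arid5, and 2097 and 1726 in the libraries labelled rlt1/2. The difference from WT in the latter was 0.10 (limma adjusted p = 0.358), so no loss of RLT1 transcript was seen in them. A read count per gene does not show whether the transcript was intact. RLT1 was nevertheless called lower in the libraries labelled rlt1/2 than in arid5, by −0.55 ± 0.08 (adjusted p = 0.0145) and its level in arid5 stood 0.65 above WT. Without arid5 replicate 2 the adjusted p of that difference was 0.0978.

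Of the 7 subunits tested, the other 4 were not called between the mutants, and 7 more listed subunits were not analysed here. CHR17 stood at 1963 and 2049 in arid5 and at 1984 and 2016 in the libraries labelled rlt1/2, and the 95% confidence interval of its difference ran from −0.15 to 0.14 log2 units. For CHR11 the interval ran from −0.11 to 0.17. FHA2, a forkhead-associated protein, and MSI3, a WD40 repeat protein, were also not called, with differences of −0.03 each. Of the tested genes beside the mutated loci, AT3G43230, AT1G28410 and AT5G44170 differed by at most 0.06. GLK2, beside RLT2, differed by −0.34 with a 95% confidence interval from −0.52 to −0.16 and was not called (limma adjusted p = 0.123). A further neighbour, CYP705A24 next to RLT1, was too low to test.

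Across the transcriptome the mutants lay close to each other and far from WT. The root mean square log2 difference was 0.229 between the WT libraries, 0.231 between the arid5 libraries and 0.253 between those labelled rlt1/2. From an arid5 library to one labelled rlt1/2 it was 0.259 to 0.304, just above the distances between replicates. From a mutant library to WT it was 0.550 to 0.699. In a principal component analysis the first component, with 79.4% of the variance, separated WT from every mutant library, and the second, with 7.12%, put arid5 at −12.8 and −18.1 and the libraries labelled rlt1/2 at 13.7 and 13.4.

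**Figure D1:**
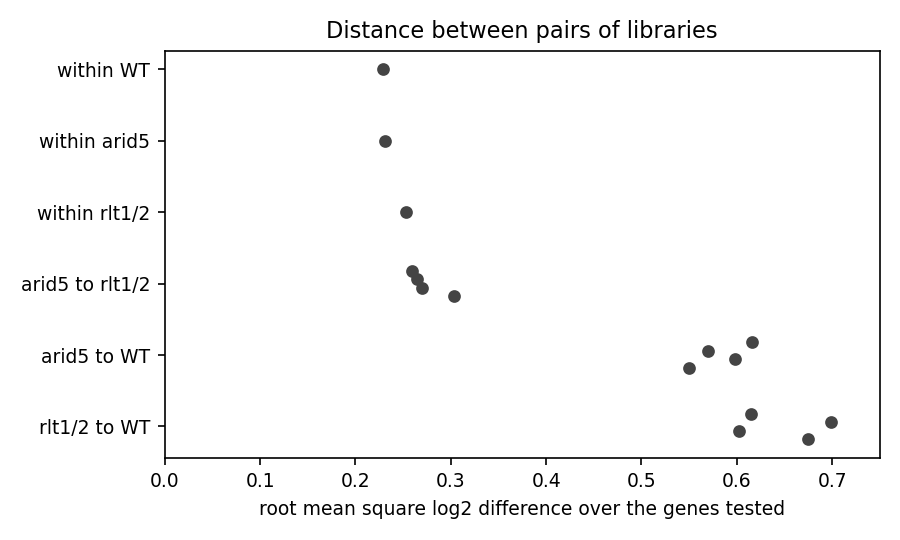
Root mean square log2 difference over the 20811 genes tested (x axis, log2 units) for each pair of libraries, grouped by the lines compared; each point is 1 pair. The 4 pairs of an arid5 and a rlt1/2 library lie at 0.259 to 0.304, near the pairs within a line, and all pairs with WT lie at 0.550 or above.

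Between the mutants 114 genes were called, 0.548% of those tested: 88 higher (0.423%) and 26 lower (0.125%) in the libraries labelled rlt1/2. An unadjusted p under 0.05 was reached by 1872 genes. Over 2-fold, 31 were higher (0.149%) and 1, RLT2, was lower (0.00481%). Against WT the same fit called 10015 genes in the libraries labelled rlt1/2 (48.1%, with 9.67% called and over 2-fold) and 9356 in arid5 (45%, with 7.22% called and over 2-fold). These contrasts share the WT libraries, so each is given for itself. The median absolute difference was 0.09 log2 units between the mutants, 0.30 between rlt1/2 and WT and 0.28 between arid5 and WT.

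Closeness was also measured by the interval of each difference, on the log2 scale with a constant added to each normalised count. For 19968 genes (95.9%) the 95% confidence interval of rlt1/2 minus arid5 lay within 2-fold either way, and for 16046 (77.1%) within 1.5-fold. Among the 2241 genes called and over 2-fold against WT in at least 1 mutant, 86 were called between the mutants, and for 1860 (83%) the interval of the difference lay within 2-fold. The added constant shrinks the differences of genes with low counts, so for them the interval does not bound the fold of the level itself. FLC, with almost no reads in either mutant, had an interval from −0.55 to 0.66 and so lay within 2-fold. How many genes lay within 2-fold because of the constant was not tested.

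**Figure D2:**
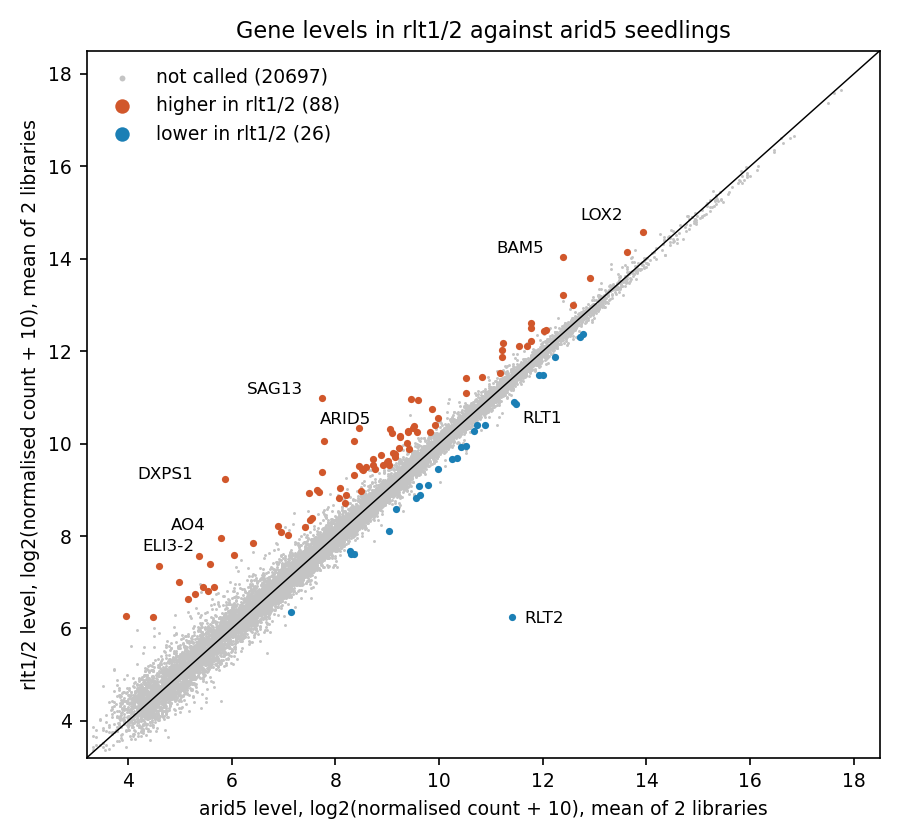
Level of each gene tested in arid5 (x axis) against rlt1/2 (y axis), both as log2(normalised count + 10) and as the mean of 2 libraries; the line marks equal levels. The 88 genes called higher and the 26 called lower in rlt1/2 are coloured, and the other 20697 are grey along the line.

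The called genes leaned to one side of WT. Of the 88 genes higher in the libraries labelled rlt1/2 than in arid5, 80 were called above WT in those libraries and 55 were called above WT in arid5. Of the 26 lower ones, 22 were called below WT in the libraries labelled rlt1/2 and 14 in arid5. Over all genes tested, 24% were called above WT and 24.1% below it in the libraries labelled rlt1/2, and 22.1% and 22.8% in arid5. Since the genes were picked on the mutant libraries, these counts describe them and are no test. Genes called in opposite directions against WT in the mutants numbered 4. Besides ARID5 and RLT2 these were BCB and XTH31.

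BCB, a blue copper-binding protein of stress responses, had 159 and 193 normalised counts in WT, 129 and 121 in arid5, and 246 and 251 in the libraries labelled rlt1/2. It was above WT in the latter and below it in arid5, and the mutants differed by 0.94 ± 0.14 (limma adjusted p = 0.0125). XTH31, an enzyme that remodels xyloglucan of the cell wall, had 3328 and 3560 in WT, 4225 and 3951 in arid5, and 2677 and 3053 in the libraries labelled rlt1/2. Its groups did not overlap, which was required of the genes named here, and the mutants differed by −0.51 ± 0.08 (adjusted p = 0.0136). The BCB call was lost without arid5 replicate 2 (adjusted p = 0.0709) or rlt1/2 replicate 2 (0.0628), and the XTH31 call without arid5 replicate 1 (0.0694) or with all 8 libraries in the fit (0.112).

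The 4 genes described next, SAG13, DXPS1, AO4 and PES1, kept their calls under every alternative run. SAG13, a short-chain dehydrogenase used as a marker of senescence, had 267 and 162 normalised counts in WT and 249 and 166 in arid5, but 3046 and 1328 in the libraries labelled rlt1/2. The arid5 and WT libraries overlapped, and both libraries labelled rlt1/2 stood far above them, by 3.24 ± 0.32 over arid5 (limma adjusted p = 0.00168). In whole seedlings, fewer cells of a type and less RNA per cell cannot be told apart. DXPS1, annotated as a 1-deoxy-D-xylulose 5-phosphate synthase of the plastid isoprenoid pathway, was listed at 0 in both WT libraries, at 84.7 and 25.7 in arid5 and at 738 and 477 in the libraries labelled rlt1/2. Its difference between the mutants was 3.38 ± 0.37 (adjusted p = 0.0031). AO4, an aldehyde oxidase, rose in steps from 1.08 and 3.11 in WT to 50.4 and 40.3 in arid5 and 234 and 243 in the libraries labelled rlt1/2. PES1, which esterifies phytol when chlorophyll is broken down, had 388 and 408 in WT, 795 and 732 in arid5, and 1742 and 2198 in the libraries labelled rlt1/2. For AO4 the mutants differed by 2.17 ± 0.20 (adjusted p = 0.001) and for PES1 by 1.35 ± 0.10 (adjusted p = 0.000209).

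The remaining leading genes have varied known roles. ELI3-2, a cinnamyl alcohol dehydrogenase of the pathogen response, had 25.3 and 6.3 normalised counts in arid5 and 201 and 117 in the libraries labelled rlt1/2. Its difference was 2.77, and 1.65 with a pseudocount of 50 in place of 10. CSLG2, a cellulose synthase-like protein, differed by 2.22, and its call was lost with a pseudocount of 1 (limma adjusted p = 0.0512). TI1, a trypsin inhibitor, had 183 and 147 normalised counts in WT, 396 and 295 in arid5, and 1425 and 1166 in the libraries labelled rlt1/2, a difference of 1.89 ± 0.15 with an adjusted p of 0.000235. AT2G43530, a knottin-like peptide gene, differed by 1.26. JAL23, a jacalin-related lectin, had 187 and 117 in WT, 652 and 731 in arid5, and 1721 and 2280 in the libraries labelled rlt1/2. AMY1, a secreted alpha-amylase, differed by 1.81. RNS1, a secreted ribonuclease, had 469 and 213 in arid5 and 874 and 1260 in the libraries labelled rlt1/2, and its call was lost without rlt1/2 replicate 2 (adjusted p = 0.129) and with all 8 libraries in the fit (0.062). BSMT1, which methylates salicylic and benzoic acid, differed by 2.31, and AT5G55410, a lipid-transfer-like protein gene, by 1.76. BSMT1 was listed at 0 in WT, at 10.7 and 1.77 in arid5 and at 43.3 and 102 in the libraries labelled rlt1/2. The calls of both BSMT1 and AT5G55410 were lost without arid5 replicate 2 (adjusted p = 0.128 for each) and without rlt1/2 replicate 2 (0.107 and 0.215), and that of AT5G55410 also without arid5 replicate 1 (0.12). The size of both differences depended on the pseudocount: at 1 they were 3.57 and 2.31 and not called (adjusted p = 0.0792 and 0.1), and at 50 they were 1.09 and 0.91, with only BSMT1 called. With voom neither was called (0.0681 and 0.0897).

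**Figure D3:**
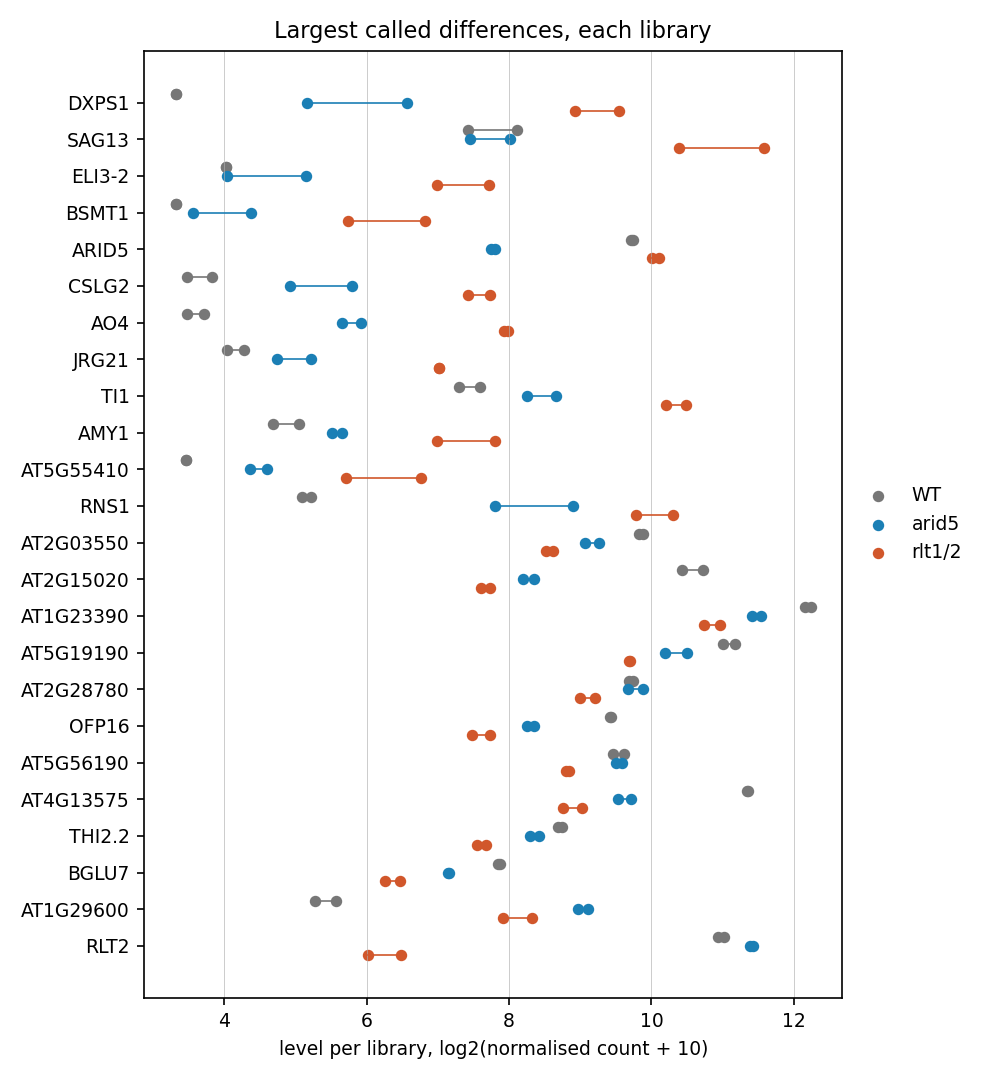
Level in each library, as log2(normalised count + 10) on the x axis, of the 12 genes with the largest called positive differences and the 12 with the largest called negative ones; colours mark WT, arid5 and rlt1/2, and a line joins the 2 libraries of a group. A gene was shown only if its arid5 and rlt1/2 libraries did not overlap, which held for 36.9% of all genes tested. For SAG13 arid5 lies on WT.

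BAM5, a beta-amylase of the phloem, had the highest normalised count, not divided by gene length, among the genes called over 2-fold. It had 206 and 265 normalised counts in WT, 6338 and 4540 in arid5, and 11330 and 25050 in the libraries labelled rlt1/2. All mutant libraries were far above WT, and the mutants differed by 1.65 ± 0.28 (limma adjusted p = 0.0227). The size of that difference rested on 1 library: without rlt1/2 replicate 2 it was 1.08 (adjusted p = 0.0216), and without arid5 replicate 2 the call was lost (adjusted p = 0.139). It was also lost with quantile normalisation (0.0681) and with all 8 libraries in the fit (0.0647). Of the 15 starch and sugar genes tested, BAM5 was the 1 called, and their median difference was 0.17 against 0.00 over all genes. GPT2, a plastid importer of glucose phosphate, had 948 and 498 in arid5 and 1360 and 1784 in the libraries labelled rlt1/2, with an adjusted p of 0.0534.

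Among the lists, the jasmonate genes held the most calls between the mutants, all of them higher in the libraries labelled rlt1/2. The lists were written with earlier results of these data known, so their counts describe them and are no test. Jasmonates are lipid-derived hormones made in wounded and ageing tissue, and their receptor COI1 acts by removing JAZ repressor proteins. Of 24 tested members of a jasmonate list, 5 were called higher in the libraries labelled rlt1/2 and none lower, where 0.423% of all genes tested were called higher. The median difference of the list was 0.51, against 0.00 over all genes, and 23 of the 24 differences were positive, as were 10464 of the 20811 over all genes. The arid5 and rlt1/2 libraries did not overlap for 19 of the 24, where 36.9% of all genes did not overlap. Against WT, 15 members were called higher and 4 lower in the libraries labelled rlt1/2, with a median of 0.81. In arid5, 9 were called higher and 7 lower, with a median of 0.14. Over all genes 24% were called higher and 24.1% lower in the former, and 22.1% and 22.8% in arid5.

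The called members lie at the start, the end and the output of the pathway. LOX2 and LOX3 are lipoxygenases that begin jasmonate synthesis, CYP94B3 hydroxylates the active hormone and so removes it, and VSP1 and VSP2 are vegetative storage proteins induced by it. The 250 bases before the annotated start of the most strongly supported call, LOX3, and of the neighbouring, related genes VSP1 and VSP2 are shown because all were called higher in the libraries labelled rlt1/2 than in arid5. They were read from the RefSeq copy of TAIR10.1, 5′ to 3′ on the gene's strand. LOX3 is at chr1:5977073-5977322 on the plus strand, VSP1 at chr5:8509202-8509451 and VSP2 at chr5:8502225-8502474 on the minus strand. Capitals mark AACGTG, read on either strand, 1 of the motifs searched.
LOX3: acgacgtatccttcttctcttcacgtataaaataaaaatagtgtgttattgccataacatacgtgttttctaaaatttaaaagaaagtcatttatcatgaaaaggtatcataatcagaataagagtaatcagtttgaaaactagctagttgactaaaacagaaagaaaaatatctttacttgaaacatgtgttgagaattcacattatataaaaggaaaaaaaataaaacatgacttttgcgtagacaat
VSP1: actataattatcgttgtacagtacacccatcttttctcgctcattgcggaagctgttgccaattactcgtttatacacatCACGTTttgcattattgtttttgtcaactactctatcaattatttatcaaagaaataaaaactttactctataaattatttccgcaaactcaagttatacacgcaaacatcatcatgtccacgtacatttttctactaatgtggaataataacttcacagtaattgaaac
VSP2: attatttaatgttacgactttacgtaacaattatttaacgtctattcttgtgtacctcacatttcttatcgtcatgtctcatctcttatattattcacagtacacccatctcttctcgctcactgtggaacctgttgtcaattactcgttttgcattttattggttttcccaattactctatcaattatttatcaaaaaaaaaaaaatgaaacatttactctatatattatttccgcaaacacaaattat

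The motifs searched were CACGTG and AACGTG, both on both strands, which share the letters ACGTG and are bound by basic helix-loop-helix factors such as those of the jasmonate response. CACGTG was in none of the 5 windows of called members, in 4 of the 26 windows of the whole list (15.4%) and in 6.46% of 27561 windows of protein-coding genes. AACGTG was in the VSP1 window, starting 170 bases before the gene, in 7 of the 26 (26.9%) and in 7.52% of all windows. A match is only a description of these letters in these windows.

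LOX3 had 251 and 247 normalised counts in WT, 372 and 309 in arid5, and 668 and 783 in the libraries labelled rlt1/2. Its groups were apart and in that order, and the mutants differed by 1.07 ± 0.12 (limma adjusted p = 0.0031). LOX2 had 11180 and 9693 in WT, 15660 and 15530 in arid5, and 22160 and 26600 in the libraries labelled rlt1/2, a difference of 0.64 ± 0.11 (adjusted p = 0.0213). CYP94B3 had 39.0 and 43.7 in WT, 33.9 and 32.9 in arid5, and 93.6 and 126 in the libraries labelled rlt1/2. Its arid5 libraries were the lowest of the 6, and the mutants differed by 1.45 ± 0.20 (adjusted p = 0.0087). VSP1 had 223 and 146 in WT, 187 and 155 in arid5, and 387 and 593 in the libraries labelled rlt1/2, a difference of 1.44 ± 0.21 (adjusted p = 0.0125). VSP2 had 2372 and 1601 in WT, 700 and 748 in arid5, and 1252 and 1399 in the libraries labelled rlt1/2, a difference of 0.86 ± 0.14 (adjusted p = 0.019). VSP2 was thus below WT in both mutants and lowest in arid5, while VSP1 in arid5 overlapped WT. The VSP genes are close copies, so the reads of one may have been counted for the other.

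Further jasmonate genes leaned the same way without being called. CORI3, a cystine lyase induced by jasmonate, had 5725 and 5034 normalised counts in arid5 and 6779 and 11240 in the libraries labelled rlt1/2, with a limma adjusted p of 0.167. JAZ1 had 580 and 419 in arid5 and 652 and 830 in the libraries labelled rlt1/2 (adjusted p = 0.238). The synthesis genes AOS, AOC1, AOC2, AOC3 and OPR3 differed by 0.15 to 0.56. The receptor gene COI1 was the 1 member with a negative difference, −0.10. The count of called members depended on single libraries: it was 3 without arid5 replicate 1, without arid5 replicate 2 or without rlt1/2 replicate 2, and 7 without rlt1/2 replicate 1. The call of VSP1 was lost without arid5 replicate 2 (adjusted p = 0.0687) or rlt1/2 replicate 2 (0.0633), and that of CYP94B3 without rlt1/2 replicate 2 (0.0659). That of LOX2 was lost without arid5 replicate 1 (0.08) or arid5 replicate 2 (0.159), with the 4 mutant libraries alone (0.0582) and with all 8 libraries in the fit (0.0811). That of VSP2 was lost without arid5 replicate 1 (0.0625), arid5 replicate 2 (0.0605) or rlt1/2 replicate 2 (0.0869), and with all 8 libraries (0.0664).

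**Figure D4:**
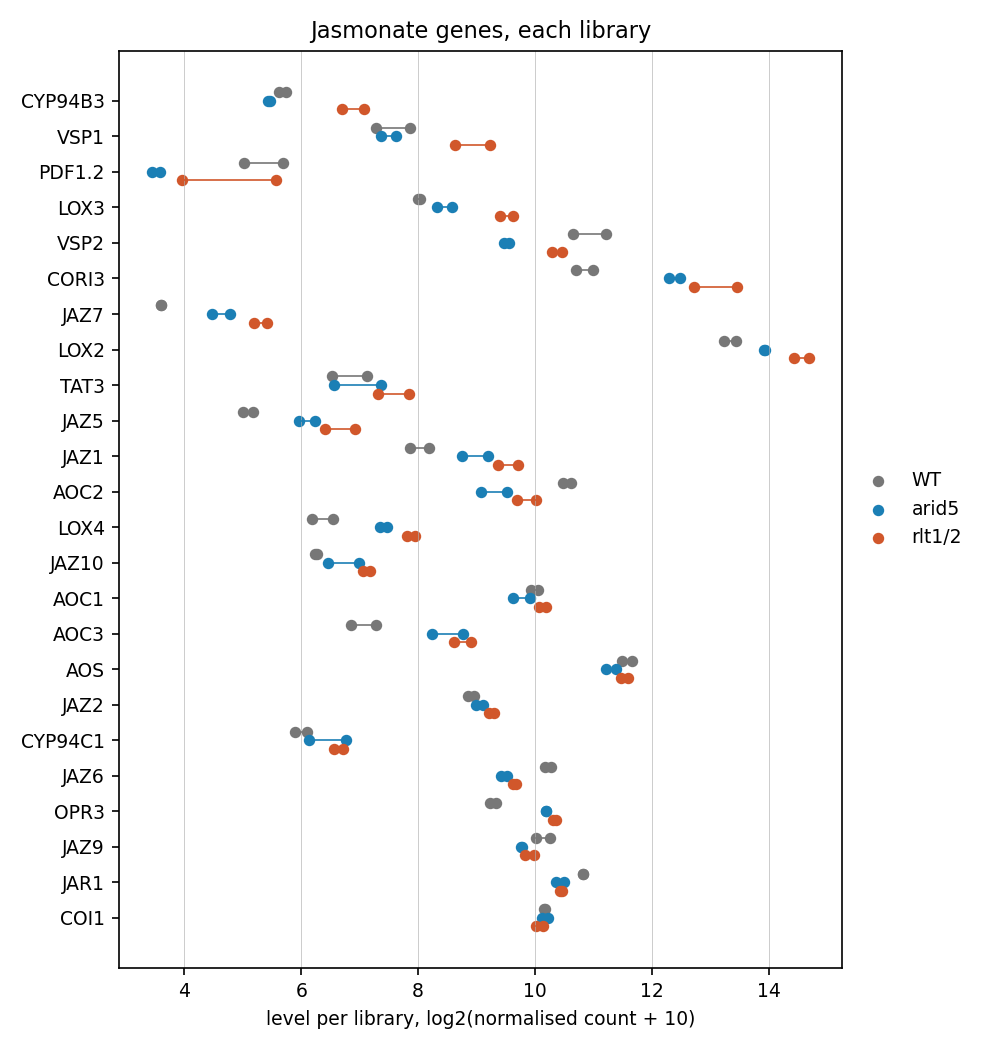
Level in each library, as log2(normalised count + 10) on the x axis, of the 24 tested jasmonate genes in order of their difference between the mutants; colours mark WT, arid5 and rlt1/2, and a line joins the 2 libraries of a group. The rlt1/2 libraries lie to the right of arid5 for most genes, and WT lies on either side.

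Called genes outside the list that are known to respond to jasmonate or wounding were picked after their values were seen. They included JRG21, a jasmonate oxidase, with 27.2 and 16.8 normalised counts in arid5 and 119 and 119 in the libraries labelled rlt1/2. NATA1, which acetylates ornithine, had 159 and 228 in arid5 and 377 and 657 in the libraries labelled rlt1/2. The protease inhibitor genes UPI and KTI1 differed by 0.95 and 0.90, and the myrosinase-binding protein gene MBP1 by 1.65. In the salicylic acid defence list none of 20 members was called, and the median difference was 0.13. PR2, a glucanase of that response, had 167 and 264 in arid5 and 400 and 336 in the libraries labelled rlt1/2 (limma adjusted p = 0.15). It was called without arid5 replicate 2 (adjusted p = 0.0303).

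The leaf senescence list held SAG13 as its 1 called member of 12 tested, where 0.423% of all genes tested were called higher. All 12 differences were positive, as were 10464 of the 20811 over all genes, and the median was 0.25. Against WT, 5 members were called higher and 4 lower in the libraries labelled rlt1/2, with a median of −0.04. In arid5, 3 were called higher and 7 lower, with a median of −0.24. Over all genes 24% were called higher and 24.1% lower in the libraries labelled rlt1/2, and 22.1% and 22.8% in arid5. ORE1, a transcription factor that promotes senescence, had 392 and 353 normalised counts in arid5 and 459 and 444 in the libraries labelled rlt1/2. The 11 members not called differed by 0.09 to 1.02.

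Some cell wall genes of the extensin family, also picked after their values were seen, were higher in the libraries labelled rlt1/2. Of 41 tested genes with an extensin name in their annotation, 11 were called higher and none lower, 28 differences were positive, and the median was 0.25. Extensins are hydroxyproline-rich proteins that strengthen the wall and are abundant in root hairs. Of 12 tested genes annotated as proline-rich extensin-like family proteins, 10 were called higher and none lower, where 0.423% of all genes tested were called higher. Their median difference was 0.78, against 0.00 over all genes. EXT10 had 348 and 295 normalised counts in WT, 634 and 560 in arid5, and 1179 and 1082 in the libraries labelled rlt1/2, a difference of 0.91 ± 0.10. AT3G54580 had 1647 and 1805 in WT, 3650 and 3331 in arid5, and 6953 and 5524 in the libraries labelled rlt1/2. The order WT, arid5, rlt1/2 held in both without overlap. Of 19 tested genes annotated with both a pollen allergen and an extensin name, none was called and the median was 0.07. If the extensin-like genes are similar in sequence, their reads could be split or shared in counting. That was not tested, so the 10 cannot be taken as independent. Without arid5 replicate 2, 3 of them were called.

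Root markers were set beside that result. Of 21 tested, 1 was called, LRX1, a leucine-rich repeat extensin of root hairs, with 538 and 467 normalised counts in arid5 and 776 and 752 in the libraries labelled rlt1/2. The LRX1 difference was 0.60 ± 0.11 (limma adjusted p = 0.0307). Its adjusted p was 0.26 without arid5 replicate 2, 0.0689 without rlt1/2 replicate 1, 0.0949 without rlt1/2 replicate 2 and 0.0628 with all 8 libraries in the fit. Over all genes tested, 0.423% were called higher and 10464 of the 20811 differences were positive. The root list had a median difference of 0.12, a range from −0.41 to 0.60, and 14 of 21 positive differences. Its summed level was 69020 and 59610 in arid5 and 59690 and 76160 in the libraries labelled rlt1/2, which overlapped, and no root marker was at 0. The root hair genes EXPA7, EXPA18 and COBL9 differed by 0.38, 0.48 and 0.48 and were not called. The part of root tissue in the extensin result was not tested.  Of the marker lists for seed and anther, 5 of 19 and 1 of 9 genes were high enough to test, and none was called.

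The genes lower in the libraries labelled rlt1/2 were fewer and, RLT2 apart, none passed 2-fold. AT1G29600, a CCCH zinc finger gene, had 28.6 and 37.4 normalised counts in WT, 542 and 491 in arid5, and 309 and 231 in the libraries labelled rlt1/2. It was above WT in both mutants and highest in arid5, and the mutants differed by −0.92 ± 0.17 (limma adjusted p = 0.033). AT4G13575, an uncharacterised gene, had 2623 and 2600 in WT, 726 and 833 in arid5, and 513 and 424 in the libraries labelled rlt1/2. It was below WT in both mutants and lowest in the latter, differing by −0.73 ± 0.10 (adjusted p = 0.00743). AT5G56190, a WD40 repeat gene, had 756 and 718 in arid5, which overlapped WT, and 438 and 450 in the libraries labelled rlt1/2. THI2.2, a thionin, and OFP16, an ovate family protein, differed by −0.74 and −0.70. The others of the 12 largest, BGLU7, AT2G28780, AT5G19190, AT1G23390, AT2G15020 and AT2G03550, differed by −0.79 to −0.59. With all 8 libraries in the fit, the calls of AT4G13575, AT1G29600, THI2.2, OFP16, BGLU7, AT5G19190, AT2G15020 and AT2G03550 were lost, at adjusted p from 0.112 (AT5G19190) to 0.552 (AT4G13575). The calls of AT5G56190 and AT4G13575 were kept whichever library was left out. Those of BGLU7 and AT2G15020 were lost without any 1 of the 4 mutant libraries, with adjusted p up to 0.214 and 0.156, and that of BGLU7 also without either WT library (up to 0.0696). The call of AT1G29600 was lost without arid5 replicate 1, arid5 replicate 2 or rlt1/2 replicate 2 (up to 0.209), and those of OFP16 and AT2G03550 without arid5 replicate 2 (0.14 for each) or rlt1/2 replicate 2 (0.0763 and 0.0628). Those of AT1G23390 (0.056), AT2G28780 (0.0764) and AT5G19190 (0.0732) were lost without arid5 replicate 2, and that of THI2.2 without arid5 replicate 1 (0.062).

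Flowering genes, the known targets of the complex, showed no called difference between the mutants. SEP3, a MADS-box factor of floral organ identity, had 153 and 189 normalised counts in WT, 2693 and 1976 in arid5, and 1973 and 2533 in the libraries labelled rlt1/2. Both mutants stood far above WT, their libraries overlapped, and the 95% confidence interval of the difference ran from −0.38 to 0.29. SEP1 had 212 and 178 in arid5 and 218 and 254 in the libraries labelled rlt1/2, with an interval from −0.15 to 0.67. AP3, the petal and stamen identity gene, had 8.39 and 5.24 in WT, 238 and 200 in arid5, and 326 and 423 in the libraries labelled rlt1/2. AP3 had the widest gap between the mutants among the floral organ MADS-box genes tested, 0.74 ± 0.18 with an interval from 0.34 to 1.15, and it was not called (limma adjusted p = 0.149). With limma's voom on the reads behind the values, a test added after seeing the data, the adjusted p of AP3 was 0.0421. The other MADS-box genes tested, PI, AG, SEP2, SEP4, SHP1 and SHP2, differed by −0.21 to 0.49 and none was called.

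Flowering time genes were likewise not called. FT, the mobile flowering signal, had 10.7 and 22.8 normalised counts in WT, 85.4 and 56.1 in arid5, and 62.9 and 90.3 in the libraries labelled rlt1/2, with an interval of the difference from −0.50 to 0.71. SOC1, which integrates flowering signals, had 1105 and 952 in WT, 486 and 459 in arid5, and 448 and 417 in the libraries labelled rlt1/2, an interval from −0.33 to 0.08. FLC, the floral repressor, had 15.9 and 20.8 in WT, was listed at 0 in both arid5 libraries and stood at 0 and 0.753 in the libraries labelled rlt1/2. Of 12 promoters and 19 repressors of the floral transition tested, none was called. MAF4, a repressor related to FLC, had the widest gap of these, −0.86 ± 0.27, with 22.2 and 35.9 in arid5 and 14.3 and 8.53 in the libraries labelled rlt1/2 (limma adjusted p = 0.292). SNZ, a repressor of the AP2 family, had the lowest p, with 174 and 201 in arid5 and 120 and 113 in the libraries labelled rlt1/2 (adjusted p = 0.0631).

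Photosynthesis genes were low in both mutants and close between them. All 32 tested were called below WT in the libraries labelled rlt1/2, with a median of −1.09, and all 32 in arid5, with a median of −0.95, where 24.1% and 22.8% of all genes were called lower. Between the mutants none was called and the median was −0.13. Of the 32 differences 5 were positive, as were 10464 of the 20811 over all genes. For all 32 the 95% confidence interval of the difference lay within 2-fold. LHCB1.4, a light-harvesting protein and 1 of those 5, had 56680 and 54210 normalised counts in WT, 11510 and 13740 in arid5, and 14950 and 13910 in the libraries labelled rlt1/2. Of 13 chlorophyll synthesis and regulator genes none was called either, and 2 of the differences were positive, with a median of −0.11. Their widest gap was that of GLK2, a factor that activates chloroplast genes, with 3999 and 4596 in arid5 and 3527 and 3254 in the libraries labelled rlt1/2 (limma adjusted p = 0.123).

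Iron uptake genes were less settled. In arid5, 10 of 14 tested iron deficiency genes were called below WT, with a median of −1.01, and in the libraries labelled rlt1/2, 7 were, with a median of −0.34. Over all genes 22.8% were called below WT in arid5 and 24.1% in the libraries labelled rlt1/2. The difference between the mutants had a median of 0.20 and was called for none. It was positive for 12 of 14, and for 10464 of the 20811 genes tested. CYP82C4, which makes an iron-mobilising coumarin, had 50.3 and 24.2 normalised counts in WT, 2.85 and 11.4 in arid5, and 48.6 and 30.8 in the libraries labelled rlt1/2, with a limma adjusted p of 0.0828. FRO2, the root ferric reductase, had 47.4 and 65.1 in arid5 and 151 and 75.6 in the libraries labelled rlt1/2, and was called without rlt1/2 replicate 2 (adjusted p = 0.0373). For 8 of the 14 the interval lay within 2-fold on the scale used here, so for the others a difference of that size was not resolved by 2 libraries a group.

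In the other lists almost nothing was called. Of 17 circadian clock genes 1 was, the clock factor RVE4, with 1682 and 1699 normalised counts in arid5 and 1374 and 1296 in the libraries labelled rlt1/2 (−0.34 ± 0.06, limma adjusted p = 0.0469). That call was lost without any 1 library but rlt1/2 replicate 1, at adjusted p up to 0.305. None was called among 20 other chromatin regulators, 20 cold and drought proteins, 13 abscisic acid, 25 auxin response, 17 aliphatic and 12 indole glucosinolate genes. None was called among 15 flavonoid, 14 phosphate starvation, 11 nitrate, 10 heat shock, 18 meristem and leaf patterning and 13 mitotic cell cycle genes, or 3 ferritins. NRT1.7, a nitrate transporter of the phloem, had 2155 and 1762 in arid5 and 2553 and 3035 in the libraries labelled rlt1/2 (adjusted p = 0.0582), and was called without arid5 replicate 1 (0.0146) or rlt1/2 replicate 1 (0.0182).

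**Figure D5:**
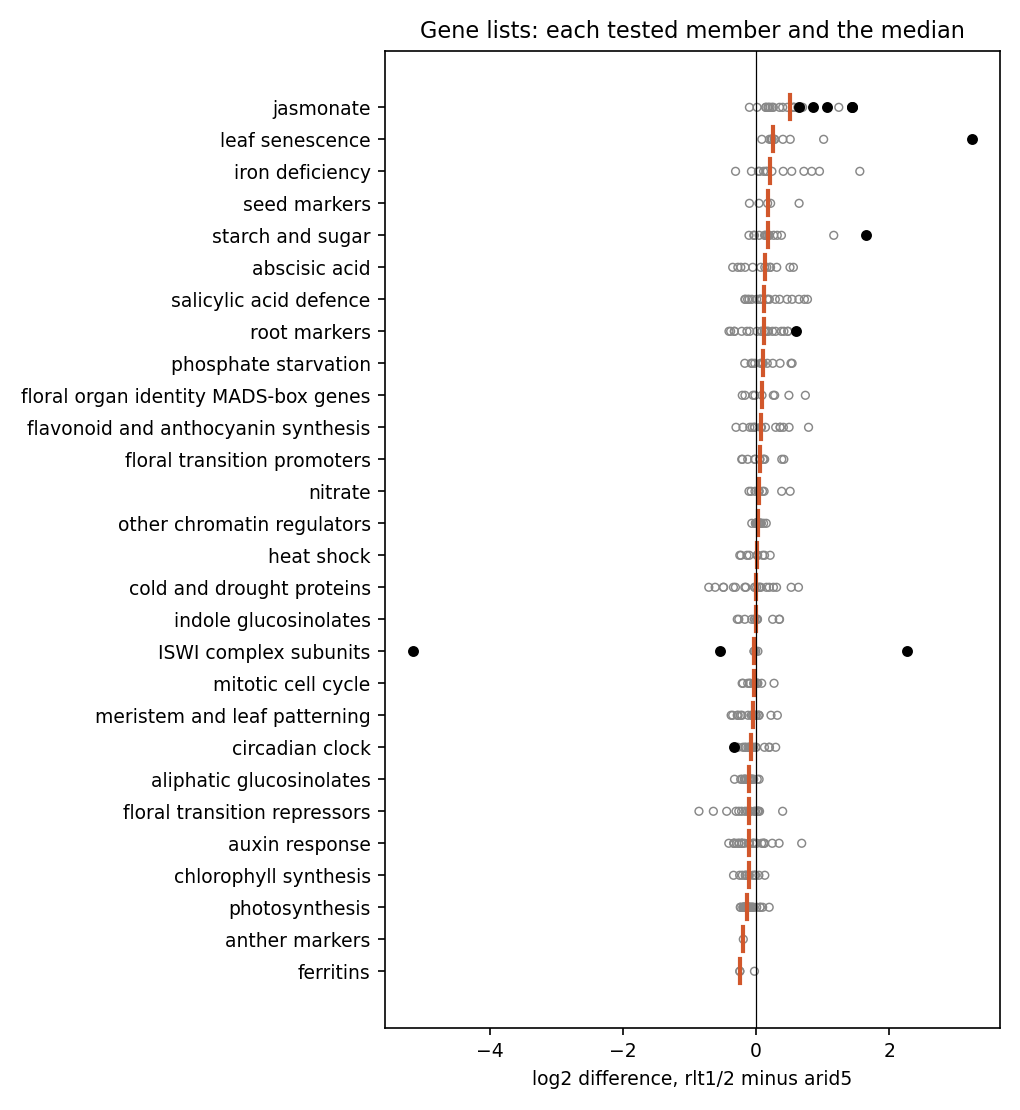
Log2 difference rlt1/2 minus arid5 (x axis) of each tested member of 28 gene lists; filled points were called, open points were not, and the coloured bar is the median of the list. The jasmonate median, 0.51, lies farthest to the right, and most other medians lie near 0.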

How the data were processed

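Messenger RNA libraries of arid5, rlt1/2 and WT seedlings, 2 of each, were compared. The authors deposited a table for each mutant with the WT libraries, holding a signal per gene: read counts adjusted to one library size, separately in each table. The submitters' processing notes list HISAT2, edgeR and the TAIR10 build. No version, counter, annotation or strand setting is given in the sources used here.

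The signal values were inverted to whole reads (100% of values whole within a relative 1e-10), and the WT reads were identical in the tables. The rlt1/2 values were divided by 1.106, the median ratio of the WT columns (1.107 and 1.104). After that the WT columns differed by at most 0.08 log2 units. Groups and replicate numbers came from the labels, which do not pair the samples.

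The test was limma 3.58.1 in R 4.3.3 with an intensity trend, on log2(value + 10), with the 6 libraries in 1 fit, 2-sided, adjusted by Benjamini-Hochberg over 20811 genes. The procedure was tested on simulated data. Lists were described by counts and medians with no set test. The members and lists were chosen with earlier results of these data known. The genes named were the subunits, FT, SOC1, FLC and the floral MADS-box genes; the 12 largest called differences per direction; the 5 most abundant over 2-fold; those called in opposite directions against WT; up to 4 called members of a list, or the 2 nearest; and neighbours of the mutated genes. Any others were chosen after their values were seen. Alternatives changed the scaling, the bridge, the pseudocount, the filter, the libraries in the fit and the test. Symbols and promoter windows came from RefSeq on TAIR10.1, matched by locus.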

Additional observations from a re-analysis of the deposited data

Results flagged for a closer look

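AT1G10586 was listed in the rlt1/2 table and not in the arid5 table, so it entered no comparison. No gene listed in the arid5 table had fewer than 5 reads in total over its libraries. Genes in only 1 of these tables, 185 of them in that of arid5, are in none of the counts of how close the mutants lay. The rlt1/2 table alone listed 411 genes. Others of these also had 0 reads in each WT library, such as AT4G19730, with 9 and 44 in the libraries labelled rlt1/2. AT1G10586 was flagged because its level reached 10 in both libraries labelled rlt1/2. It had 22 and 16 reads in them and 0 in each WT library, and its mean level in the mutant was 14.925 normalised counts on the arid5 scale. Its neighbour AT1G10585, a basic helix-loop-helix gene, was called higher in the libraries labelled rlt1/2 than in arid5, with 207 and 234 normalised counts against 100 and 55.9.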

How the results depend on the processing

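The 114 calls (88 higher, 26 lower) numbered 105 to 158 under the other scalings, bridges, pseudocounts and filters, in the 4 mutant libraries alone and with voom. The fit of all 8 libraries, which adds those labelled chr11/17, called 59 (53 higher, 6 lower), all of them among the 114. Leaving out 1 library at a time gave 52 to 239 calls, 46 to 138 higher, 6 to 101 lower and 31 to 55 over 2-fold. The fewest came without arid5 replicate 2 (52, of which 45 were among the 114). The most came without rlt1/2 replicate 1 (239, of which 96 were). Without rlt1/2 replicate 2 there were 80, and without arid5 replicate 1 there were 114 with 16 lower. The cause was not tested. No named gene reversed. The calls of SAG13, DXPS1, AO4, TI1, JAL23, PES1, JRG21 and LOX3 were kept under every alternative run. With the replicate block there were 117 calls (90 higher, 27 lower). Deviations of same-numbered arid5 and rlt1/2 libraries correlated at -0.137, and nothing in the labels makes the numbers pairs. A replicate block with crossed numbers, chosen after seeing the data, gave 146 calls. Voom on the recovered reads, also chosen after seeing the data, gave 153, or 158 with no filter. Equal library totals raised the calls against WT from 10015 to 12497 in rlt1/2 and from 9356 to 11884 in arid5, and each mutant's own table alone gave 9926 and 9846. The planned count-model alternatives (the quasi-likelihood test, the same without a filter on low counts, and DESeq2) were not run. With 2 libraries a group, genes of low count have wide intervals, and the median interval reached 0.24 log2 units either way.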
